A study of Mus musculus with 2 samples.

Results

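Histone genes of the mouse fall into those whose products package newly copied DNA and those whose products are deposited throughout the cell cycle, and both kinds were measured in embryonic intestine. Genes were taken by symbol: every protein-coding GENCODE M21 gene beginning with Hist1h to Hist4h, H2af, H3f3 or H1f that had a row in both gene tables. This gave 79 genes of 43346 in the tables, of which 64 had Hist1 to Hist4 symbols and are called replication-dependent, and 15 had H2af, H3f3 or H1f symbols and are called variant. A further 3 symbols that match the rule (Hist2h2bb, Hist1h2bm and Hist1h2bh) had no row under their gene identifiers and were not analysed here as genes. The tissue was the intestine of B6NCrl mice at embryonic day 14.5, sequenced as total RNA in 2 libraries that form the only group. Each library is labelled as the intestine of 1 pup, the labels give the sex of both as male and female pooled, and no genetic change or treatment is named. Replicate 1 was collected on day 17 and replicate 2 on day 15 of the same month, and both carry the same donor record. The labels number them as biological replicates, but do not say beyond pup and day how far they are independent, so the spread between them (n = 2) may be partly technical. With 1 group there is no contrast to test, and the values below are descriptions.

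A nucleosome wraps DNA around pairs of the core histones H2A, H2B, H3 and H4, and linker histone H1 binds where the DNA enters and leaves. Replication-dependent genes sit in clusters, mostly lack introns and are transcribed during S phase. Their messengers end in a conserved stem-loop in place of a poly(A) tail, which stem-loop binding protein (Slbp) recognises and which couples their processing and decay to DNA synthesis. Variant genes are scattered, usually have introns and a poly(A) tail, and give proteins such as H2A.Z (H2afz, H2afv), H3.3 (H3f3a, H3f3b), macroH2A (H2afy, H2afy2) and H2A.X (H2afx) that are placed in chromatin outside replication. A growing fetal gut holds many dividing cells, but in bulk tissue fewer cells of a type and less RNA per cell cannot be told apart. How first-strand cDNA was primed is not given in the sources used here, and the effect of priming on messengers without a poly(A) tail was not tested.

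The stem-loop is what the replication-dependent messengers share and the variants mostly lack. The following sites are matches to a search for it, each from a GENCODE M21 transcript on GRCm38, 5′ to 3′. The arms of the stem are in capitals, with 5 flanking bases where the transcript extends that far.
Hist1h2ap: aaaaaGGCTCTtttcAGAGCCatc
Hist1h1e: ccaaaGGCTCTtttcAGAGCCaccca
Hist1h3d: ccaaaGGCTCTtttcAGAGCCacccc
Hist1h2bk: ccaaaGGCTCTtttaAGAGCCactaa
Hist1h4d: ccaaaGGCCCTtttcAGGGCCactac
H2afx: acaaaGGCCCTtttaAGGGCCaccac
H2afj: acgcaGGCCACctgtGTGGCCatgtg
The search asked for a stem of 6 bases starting with 2 G, a loop of 4 bases and the exact reverse complement of the stem. Such a hairpin stood after the coding part in 43 of 64 replication-dependent transcripts, and in 41 of the 45 whose annotated 3′ UTR was at least 60 bases long. The rest of those 45 were Hist1h2bc, the highest H2B gene of the clusters in TPM, Hist1h2bq, Hist1h2br and Hist2h2be. The first base of the hairpin lay a median of 33 bases after the stop codon, with a range of 22 to 59. One form, shared by Hist1h2ap, Hist1h1e and Hist1h3d above, occurred in 23 genes of classes H1, H2A, H2B and H3. The form of Hist1h4d occurred in 7 genes, all of class H4, and the form of Hist1h2bk with its different loop in 6. Among the 15 variants a match stood after the coding part in H2afx, 47 bases after the stop codon, and in H2afj, 143 bases after it with another stem. The stem and loop of H2afj occur in no other member, so its site is given as a match of the search only. Within the last 200 bases of the transcript, the window used for all genes, the match was present in 26 replication-dependent transcripts (40.6%), in 0 of 15 variant transcripts and in 272 of 58797 protein-coding transcripts (0.463%). Annotated ends differ: of the 64 replication-dependent transcripts, 16 are longer in M21 than the models behind the deposited values. A match describes letters only, and binding was not measured.

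Promoters were searched for short motifs, and the next sequences show where the searched motifs fall in a linker, an H2A, an H2B, an H4 and a variant gene, as the 120 bases before the RefSeq start on GRCm38.p6, 5′ to 3′ on the strand of the gene, with the TATAAA motif, the CCAAT motif and the octamer ATTTGCAT in capitals on either strand.
Hist1h1e, chr13:23622559-23622678, minus strand: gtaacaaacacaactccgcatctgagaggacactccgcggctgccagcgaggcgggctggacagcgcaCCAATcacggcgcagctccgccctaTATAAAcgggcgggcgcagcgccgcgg
Hist1h2ab, chr13:23750968-23751087, plus strand: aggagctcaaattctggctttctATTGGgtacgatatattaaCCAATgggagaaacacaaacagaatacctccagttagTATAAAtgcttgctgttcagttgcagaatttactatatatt
Hist1h2bk, chr13:22035701-22035820, plus strand: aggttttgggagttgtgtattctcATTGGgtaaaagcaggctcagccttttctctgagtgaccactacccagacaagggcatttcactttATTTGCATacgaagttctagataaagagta
Hist1h4d, chr13:23581448-23581567, plus strand: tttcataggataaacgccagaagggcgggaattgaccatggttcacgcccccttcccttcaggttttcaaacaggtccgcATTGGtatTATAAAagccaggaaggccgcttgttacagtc
H2afz, chr3:137864367-137864486, plus strand: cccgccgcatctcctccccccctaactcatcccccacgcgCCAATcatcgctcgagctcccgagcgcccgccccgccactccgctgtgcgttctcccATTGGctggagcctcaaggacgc
RefSeq promoters of 250 bases before to 50 after the start were at hand for 59 replication-dependent and 14 variant genes, and both strands were searched. TATAAA, the core of a TATA box, was present anywhere in the window in 35 of the 59 (59.3%), in 1 of the 14 (H3f3b, 7.14%) and in 13.6% of all 32851 promoters of the table. Many of these matches lie far from where a TATA box acts: on the strand of the gene and with its first base 45 to 20 bases before the start, a window chosen after the positions were seen, it was present in 15 of the 59 (25.4%), in H3f3b of the 14 and in 2.14% of all promoters. CCAAT was present in 50 of the 59 (84.7%) and in 10 of the 14 (71.4%), against 37.4% of all promoters. By class it was in 6 of 6 H1, 18 of 18 H2A, 13 of 13 H2B and 10 of 10 H3 promoters, but in 3 of 12 H4 promoters, of which Hist1h4d is one. ATTTGCAT, an octamer known from H2B promoters, was in 7 of 18 H2A and 4 of 13 H2B promoters of the clusters. It was in no H1, H3 or H4 promoter of the clusters, in 1 of the 14 variants (H3f3b) and in 1.74% of all promoters. Each motif was counted on its own, and the end letters of one can run into another. H2A and H2B genes often lie head to head with one shared intergenic stretch, so hits in such a pair can be the same site.

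The tables held 32938592 and 32371363 expected counts in genes for replicates 1 and 2, and histone genes took 204103 and 192885 of them. Every expected count is an estimate that can be fractional, and TPM, a share of all transcripts that is corrected for length, is the level used below. Epithelial (Cdx2, Vil1, Epcam), mesenchymal (Col1a1, Col3a1, Acta2) and erythroid markers were each detected in full. The sum of 5 pancreas markers was 3.70 TPM in replicate 1 and 947 in replicate 2, and the sum of 4 erythroid markers was 7146 and 10297. Xist had 31487 and 24.8 counts, while Ddx3y, Eif2s3y and Kdm5d each had 0 counts in replicate 1 and at least 1542 in replicate 2, although the labels give both sexes for each library. The part that these differences take in the histone values was not tested, and each histone value is therefore given per library.

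Histone genes made up 1.22% and 1.14% of the TPM assigned to genes (mean 1.18% ± 0.057, SD, n = 2). Detection, defined as at least 1 TPM in both libraries, was met by 54 of 64 replication-dependent and 10 of 15 variant genes. That is 64 of 79, beside 61.3% of all 21474 protein-coding genes. The median replication-dependent gene stood at 6.62 and 6.70 TPM and the median variant at 94.4 and 81.1 TPM, beside 4.82 and 4.87 for all protein-coding genes. Among replication-dependent genes 30 of 64 had a mean under 5 TPM and 4 reached 100 TPM. The variants were split, with 7 of 15 at 100 TPM or more, 3 between 10 and 100 and 5 under 1.

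**Figure D1:**
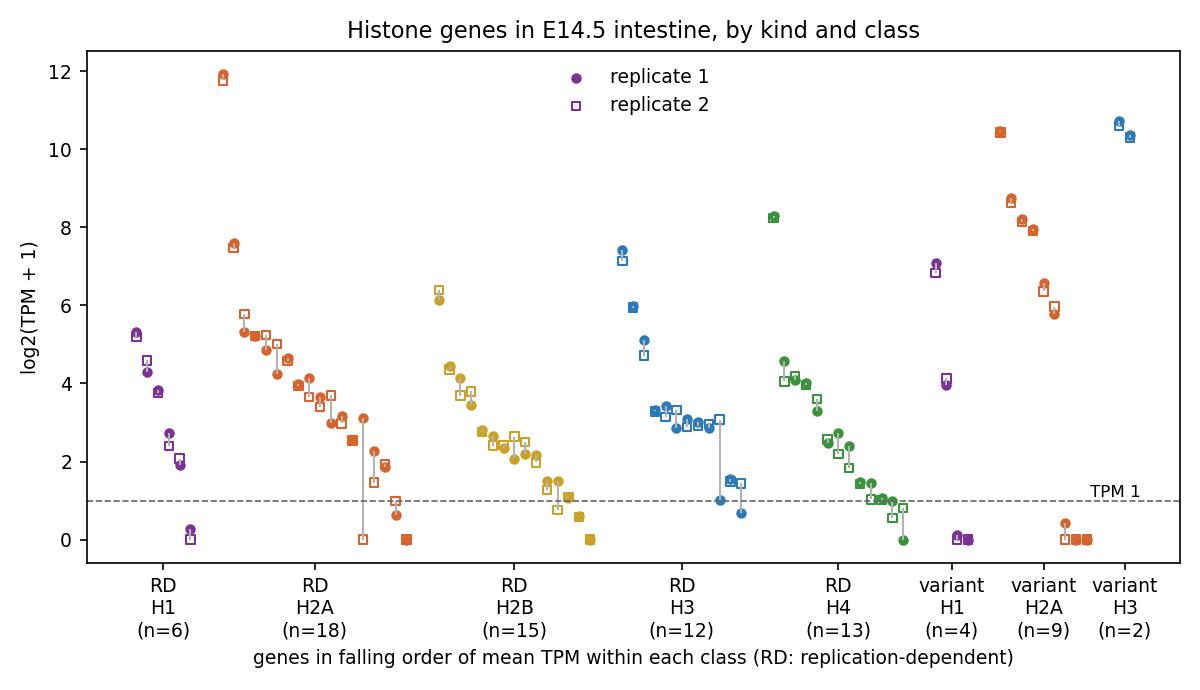
Level of each of the 79 genes, as log2(TPM + 1), by kind and class; filled circles are replicate 1, open squares replicate 2, and the dashed line is 1 TPM. One H2A gene, Hist1h2ap, lies far above the other replication-dependent genes, and 2 variant H3 genes and H2afz lie above all of the rest.

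Summed over genes in TPM, the kinds were close, with a single gene carrying most of one side. Replication-dependent genes summed to 5251 TPM in replicate 1 and 4793 in replicate 2, and variants to 5717 and 5378. The ratio of the first to the second was 0.919 and 0.891 (mean 0.905 ± 0.019, SD, n = 2). Hist1h2ap alone held 74.2% and 72.5% of replication-dependent TPM. Without it, an alternative chosen after its value was seen, the replication-dependent sum was 1354 and 1318 TPM and the ratio 0.237 and 0.245. The balance of the kinds in TPM therefore rests on what was assigned to 1 gene, most of whose sequence occurs in Hist1h2ao, another replication-dependent gene. That balance depends on the unit too, since the same ratio in expected counts, which are not corrected for length, was 0.312.

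The balance also differed by class. In class H3 the variants H3f3a and H3f3b held 90.6% and 90.9% of TPM, so that the ratio of replication-dependent to variant was 0.102 ± 0.003 (mean and SD, n = 2). In class H1 the ratio was 0.528 and 0.607. In class H2A it was 1.70 and 1.60 with Hist1h2ap and 0.164 and 0.173 without it. Classes H2B and H4 had no variant among the genes chosen.

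**Figure D2:**
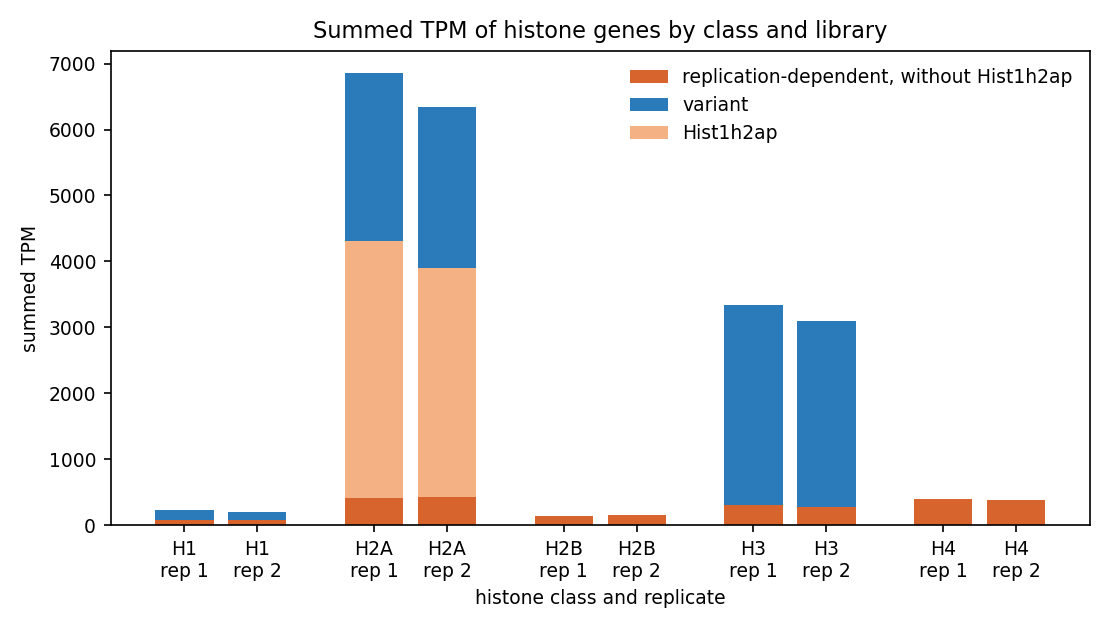
Summed TPM (vertical axis, from 0) of each histone class in each library, split into Hist1h2ap, the other replication-dependent genes and variants. Hist1h2ap and the variants fill almost all of the H2A bars, and variants fill almost all of the H3 bars, while H1, H2B and H4 sums stay under 400 TPM.

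Among linker histones of the clusters, Hist1h1e (chromosome 13, 23620629 to 23622558, GRCm38), which encodes H1.4, was highest at 38.9 and 35.3 TPM. Hist1h1c, which encodes H1.2, followed at 18.6 and 23.1 TPM, and Hist1h1b, which encodes H1.5, at 13.2 and 12.6 TPM. These values did not overlap, but the order depends on the models: Hist1h1e was counted on 748 bases, which M21 extends to 1930 bases, and had fewer counts (587 and 538) than Hist1h1c (631 and 793) on 1560 bases. Hist1h1t, the testis linker histone, had 3 counts in replicate 1 and 0 in replicate 2. The class had 5 of 6 genes detected and summed to 79.4 and 78.5 TPM.

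Among H2A genes of the clusters Hist1h2ap (chromosome 13, 21833026 to 21833507, minus strand) stood at 3898 and 3475 TPM, from 34674 and 31258 counts. The next, Hist1h2ae (chromosome 13, 23570517 to 23571220), stood at 192.5 and 176.6 TPM, and Hist1h2ag (chromosome 13, 22042460 to 22042944) at 39.0 and 53.9 TPM. Hist1h2ap was thus 20.2 and 19.7 times Hist1h2ae in TPM. Of 18 H2A genes 15 were detected. Hist1h2aa, a testis H2A gene, had 0 counts in both libraries, where 3 counts would have given 0.444 and 0.439 TPM.

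H2B genes of the clusters were lower than H2A genes. Hist1h2bc (chromosome 13, 23684199 to 23692908) led with 69.5 and 83.0 TPM, followed by Hist3h2ba (chromosome 11, 58948920 to 58949533) with 20.7 and 19.5 TPM and Hist1h2bk (chromosome 13, 22035870 to 22036345) with 16.7 and 11.9 TPM. The intervals of Hist1h2bk in the 2 libraries overlapped. The class summed to 148 and 158 TPM, and 12 of 15 genes were detected. Summed H2A was 29.2 and 24.6 times summed H2B, and 2.82 and 2.67 times without Hist1h2ap, although H2A and H2B enter the nucleosome in equal number. Hist2h2bb, Hist1h2bm and Hist1h2bh, the symbols without a row, are all H2B genes and are missing from the H2B sum. Coding transcripts under other identifiers are missing too, among them those of Hist2h2bb (17.3 and 15.7 TPM) and Hist1h2br (3.89 and 5.33 TPM). That of Hist2h2bb stood above Hist1h2bk in both libraries. Hist1h2ba, the testis H2B gene paired with Hist1h2aa, had 0 counts in both libraries.

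The H3 genes of the clusters were led by Hist1h3i (chromosome 13, 21782960 to 21783370) at 170.3 and 140.1 TPM, Hist2h3b (chromosome 3, 96268654 to 96269141) at 62.0 and 60.5 TPM and Hist1h3d (chromosome 13, 23575763 to 23577011) at 33.4 and 25.2 TPM. Of 12 H3 genes 11 were detected, and the class summed to 315 and 282 TPM. The H4 genes were led by Hist1h4d (chromosome 13, 23581598 to 23582735) at 313 and 303 TPM, with Hist1h4c at 22.8 and 15.6 TPM and Hist1h4n at 16.1 and 17.2 TPM far behind. Of 13 H4 genes 11 were detected, and the class summed to 396 and 378 TPM. Hist1h4d was counted on a model of 393 bases, which M21 extends to 1138 bases, and a longer model lowers the TPM that a given count yields. The models of Hist1h2ae, Hist1h2bc, Hist1h3d and Hist1h4c are longer in M21 as well.

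The Hist1 cluster on chromosome 13 held 52 of the 64 replication-dependent genes and 96.5% and 96.1% of their TPM. It lies in 2 blocks, from 21715763 to 22043676 with 22 genes and from 23531050 to 23934851 with 30 genes. The first block summed to 4250 and 3820 TPM, of which 352 and 345 TPM remained without Hist1h2ap, and the second to 817 and 788 TPM. The Hist2 cluster on chromosome 3 (9 genes) summed to 137 and 142 TPM and the Hist3 cluster on chromosome 11 (2 genes) to 45.0 and 42.4 TPM. Hist4h4, the single Hist4 gene (chromosome 6), stood at 1.75 and 1.04 TPM.

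**Figure D3:**
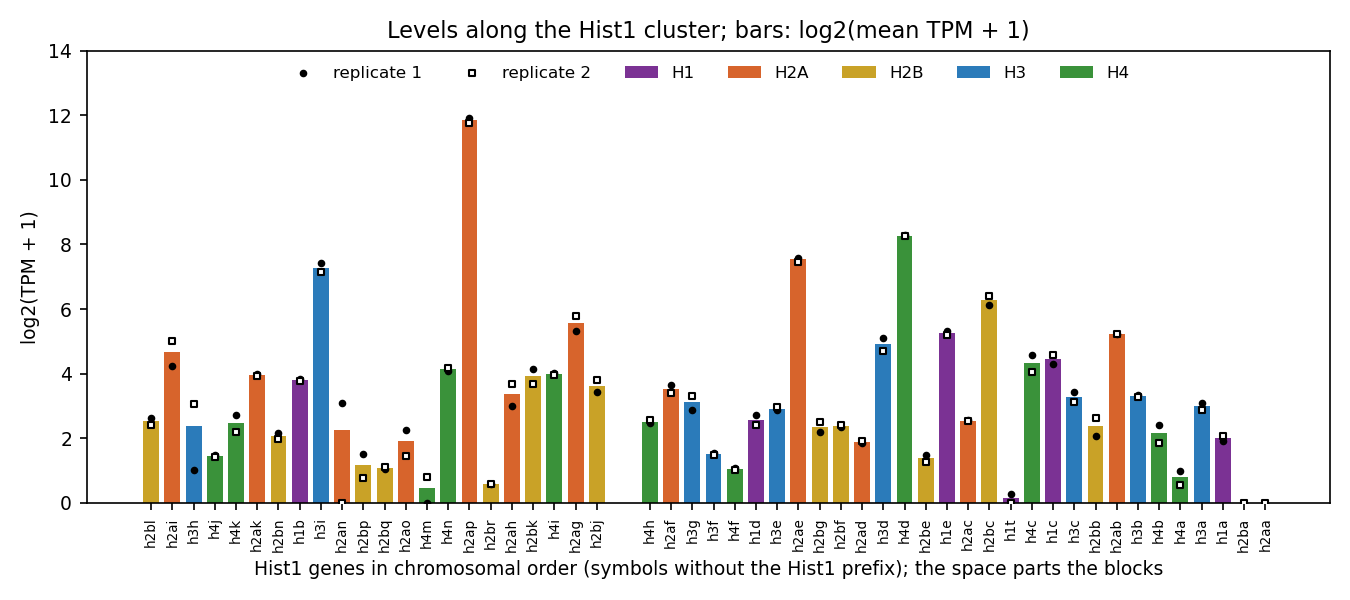
Levels of the 52 Hist1 genes in chromosomal order; bars give log2(mean TPM + 1), coloured by class, and points give each library. High genes (Hist1h2ap, Hist1h4d, Hist1h2ae, Hist1h3i) stand beside neighbours of a few TPM, and Hist1h2an and Hist1h3h are the genes whose libraries lie farthest apart.

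Within head-to-head pairs of H2A and H2B genes, levels ranged from close to far apart. Hist2h2ac at 7.96 and 6.86 TPM beside Hist2h2be at 6.01 and 5.74 TPM was a close pair. A total of 12 pairs of H2A and H2B genes lay head to head with 175 to 305 bases between their annotated starts, 11 of them in Hist1. H2A was the higher partner in 8 pairs and H2B in 3, and the testis pair Hist1h2aa and Hist1h2ba was at 0 in both. In the most uneven pair Hist1h2ap stood at 3898 and 3475 TPM and Hist1h2br at 0.51 and 0.50 TPM. Hist1h2ap shares most of its sequence with Hist1h2ao, which belongs to another pair. All of that Hist1h2br level came from a transcript annotated for nonsense-mediated decay, while a coding transcript of the symbol, listed under another gene identifier, stood at 3.89 and 5.33 TPM. In the pair of Hist1h2ac and Hist1h2bc the order was turned, with 4.86 and 4.82 TPM for the H2A gene and 69.5 and 83.0 TPM for the H2B gene. Hist1h2ae stood at 192.5 and 176.6 TPM beside Hist1h2bg at 3.61 and 4.66 TPM. Across the 12 pairs the mean levels on the log2(TPM + 1) scale had a Pearson r of -0.08 (Spearman rho 0.18), and 0.31 (0.44) over the pairs without Hist1h2ap. Pairs share libraries and sequence families, so these are descriptions.

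Among variants the H3.3 genes and H2A.Z led. H3f3a (chromosome 1, 180800832 to 180813943) stood at 1697 and 1551 TPM (mean 1624 ± 104, SD, n = 2), H2afz (chromosome 3, 137864487 to 137866922) at 1416 and 1380 TPM (1398 ± 25.3), and H3f3b (chromosome 11, 116021912 to 116027962) at 1331 and 1260 TPM (1296 ± 49.6). Both H3.3 genes encode the same protein. H2afv, the second H2A.Z gene, stood at 430 and 395 TPM (413 ± 24.7). These 4 genes held 85.3% of variant TPM in each library. In both libraries the order was H3f3a, H2afz, H3f3b, H2afv, and no gene in this order overlapped its neighbour.

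The macroH2A gene H2afy (chromosome 13, 56073619 to 56136361, outside the Hist1 cluster) followed at 298 and 282 TPM. H2afx, whose product H2A.X is phosphorylated at DNA breaks, stood at 246 and 238 TPM, and H1f0, the linker histone H1.0, at 136 and 113 TPM. H2afy2, the other macroH2A gene, stood at 94.4 and 81.1 TPM, H2afj, which encodes H2A.J, at 53.7 and 61.7 TPM, and H1fx, which encodes H1.10, at 14.6 and 16.5 TPM. None of the 10 detected variants overlapped the next in rank. H2afx is unlike the other variants in that its messenger carries the canonical stem-loop, shown above, and is also known in a polyadenylated form.

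The other 5 variants are known from germ cells and were at or near 0. H1fnt, a spermatid linker histone, and H2afb1 and H2afb2, short H2A variants, had 0 counts in both libraries. H1foo, the oocyte linker histone, and H2afb3 each had 2 counts in replicate 1 and 0 in replicate 2. A count of 3 would have given from 0.104 to 0.519 TPM for these 5 genes, so lower levels were not detectable at this depth. Histone-like genes outside the symbol rule gave the same split: Cenpa, the centromeric H3, stood at 199 and 187 TPM, and the other 8 (Hils1, H2al2a, H2al3, H2bfm, Tnp1, Tnp2, Prm1, Prm2), which serve male germ cells for the most part, had at most 1 count in either library.

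Of the genes with several deposited transcripts, 5 had at least 5 TPM, all of them variants, and in each the same transcript led in both libraries. The leading transcript held 68.5% and 68.6% of H3f3a, 86.5% and 86.8% of H2afz, 80.4% and 78.8% of H3f3b, 67.8% and 69.0% of H2afv, and 57.1% and 58.5% of H2afy. In H2afv the leading transcript was a 519-base model at 291 and 272 TPM, and a 1633-base model stood at 139 and 123 TPM. The 1633-base model had more counts (4935 and 4417) than the 519-base model (2843 and 2688), so which of them leads depends on the correction for length. In H2afy the second was a transcript annotated without a coding part, at 63.4 and 56.2 TPM. The leading transcript thus had nearly the same share in both libraries in each of these 5 genes.

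How surely a read can be placed differs between the kinds. Every stretch of 100 bases of a leading transcript, the fragment length implied by the deposited effective lengths, was looked up in the annotated transcripts of all other genes. Both strands were searched, since the use of strand is not given. A transcript entered where its model had the same length in M21, which left 45 replication-dependent and 11 variant genes. A median of 56.6% of windows of a replication-dependent gene also occurred in another gene, against 6.55% for variants. In 4 replication-dependent genes every window did, and in 3 none did. Each of those 4 matched a Gm gene of M21 in full, and whether the models behind the deposited values held it was not checked. For Hist1h2ap 353 of 383 windows (92.2%) were shared, and each of those also occurred in Hist1h2ao, a gene given 3.81 and 1.75 TPM. Of the same windows, 263 also occurred in Hist1h2ag and 173 in Hist1h2ac. Hist1h2ap and Hist1h2ao summed to 3902 and 3476 TPM, and all of these genes are replication-dependent. For H3f3a and H2afz the shared percentages were 62.5% and 58.8%, mostly with Gm17275 and with Tmcc1.

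The deposited TPM intervals followed the shared percentage only loosely. These intervals are centred on a posterior mean, need not contain the TPM, and their relative width is taken here as the width over that mean. The median relative width was 0.539 over 54 detected replication-dependent genes and 0.051 over 10 detected variants. The 5 widest were Hist1h2ao (2.14), Hist1h3h (2.00), Hist1h2ad (1.79), Hist1h2ah (1.47) and Hist1h4f (1.40). Hist1h3h ran from 0 to 6.33 TPM in replicate 1 and from 1.60 to 13.7 TPM in replicate 2. Hist1h2ap had the narrowest of the detected histone genes (0.023), 3757 to 3841 and 3349 to 3430 TPM, although most of its sequence is shared. Hist2h3b, with every window shared with the M21 gene Gm20628, had 0.187. Hist1h4f, among the widest, had 18.2% of windows shared. Across 44 detected genes with a window count, the shared percentage and the relative width had a Pearson r of 0.48 and a Spearman rho of 0.47, and an r of 0.41 over the 36 replication-dependent ones. Low counts also widen an interval, and genes of 1 family share sequence, so this is a description without a test.

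**Figure D4:**
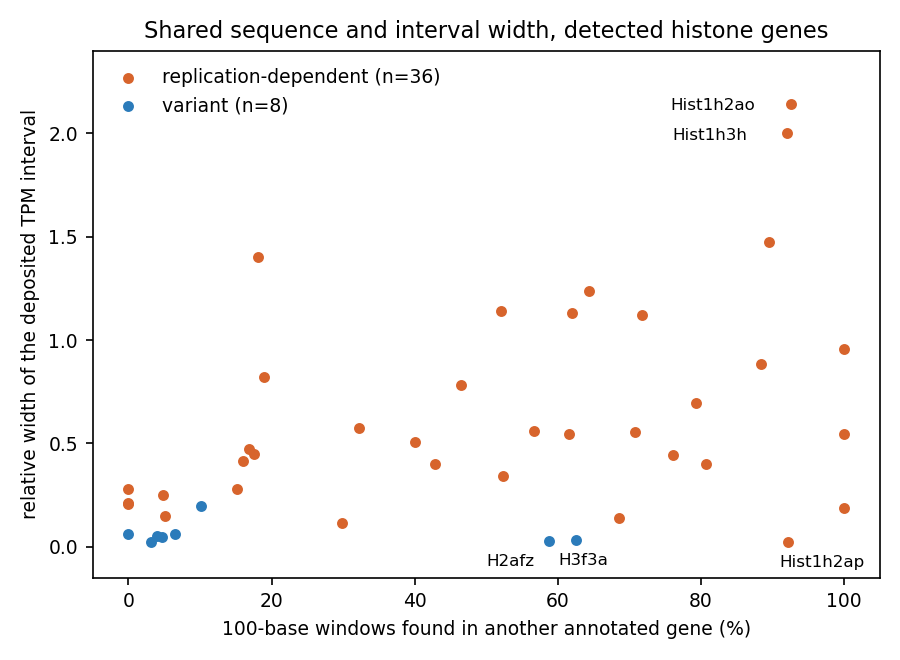
Percent of 100-base windows that also occur in another annotated gene (horizontal axis) against the relative width of the deposited TPM interval, mean of both libraries (vertical axis), for 44 detected genes. Variants lie near 0 width even where over 58% of windows are shared, and Hist1h2ap lies at the same low width as they do with 92.2% shared.

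Where members are near-copies of each other, their sums were read beside their parts. Only the partners that share the most windows with each gene were looked at, so the sums given are not complete. Hist2h2aa1 and Hist2h2aa2 each share every window with Gm20633, a gene outside the set, and were not summed. They stood at 16.74 and 11.55 TPM and at 27.89 and 36.63 TPM. Hist1h4m and Hist1h4n share at least 80% of windows, and stood at 0 and 0.75 TPM and at 16.1 and 17.2 TPM, with sums of 16.06 and 17.98 TPM. Hist1h2bq and Hist1h2br summed to 1.59 and 1.64 TPM under their own identifiers and to 5.67 and 8.56 TPM with the coding transcripts listed under others, a sum chosen after seeing the data, and their RefSeq promoters are identical over the 120 bases before the start. Hist1h2ad, Hist1h2ah and Hist1h2ai summed to 27.5 and 45.8 TPM, a difference of 0.72 on the log2(TPM + 1) scale, and the intervals of each of the 3 overlapped between libraries. Hist1h2an, which shares 77.2% of its 294 windows with Hist1h2ah, stood at 7.61 TPM in replicate 1 and 0 in replicate 2. With it, the sum was 35.1 and 45.8 TPM, a difference of 0.37. Reads of these genes cannot be told apart over most of their length.

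The libraries were next compared gene by gene. The rule for a difference took genes with a mean of 5 TPM or more, and asked for a change of 1 or more in log2(TPM + 1) together with intervals that did not overlap. This was met by 0 of 44 histone genes with a mean of at least 5 TPM, beside 0.495% of all 11324 such genes (56 genes, 51 of them higher in replicate 2). At so low a background, a count of 0 among 44 genes is no result about histone genes. The median absolute difference in log2(TPM + 1) was 0.17 over those 44 genes and 0.11 over all 11324, so the histone median was the larger. It was 0.20 for the 34 replication-dependent and 0.13 for the 10 variants. The sets were not matched for length or counts, so the larger median is no result about histone genes. Models of the 64 replication-dependent genes had a median of 481 bases, and many share sequence with near-copies. The largest difference among the 44 was for Hist1h2ai, at 17.97 and 31.1 TPM, with overlapping intervals.

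**Figure D5:**
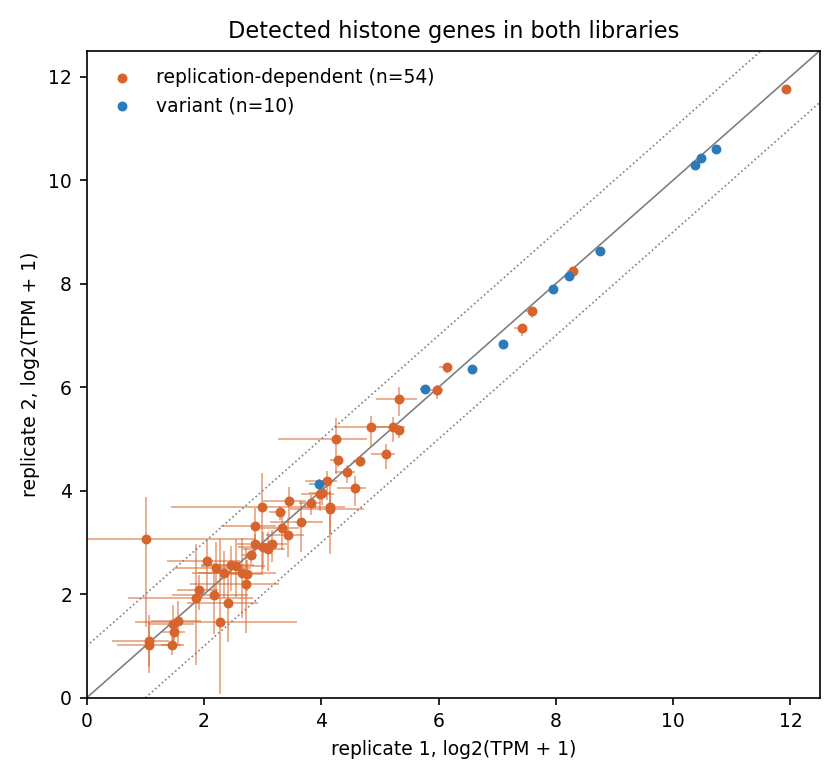
Levels of the 64 detected genes in replicate 1 (horizontal) and replicate 2 (vertical) as log2(TPM + 1), with the deposited intervals as bars; the solid line is equality and the dotted lines a difference of 1. Variants lie close to the line, and the wide bars belong to replication-dependent genes of a few TPM such as Hist1h3h, whose point lies outside the dotted lines.

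Smaller differences passed the intervals, which cover the uncertainty of assigning reads within 1 library and not the spread between animals. The intervals did not overlap for 13 of 79 genes, 9 lower and 4 higher in replicate 2. With a mean of at least 5 TPM they numbered 12 of 44, beside 2851 of 11324 genes. These shares are similar, so the count is no result about histone genes. Directions were not counted over all genes. The median log2(TPM + 1) difference, replicate 2 minus replicate 1, was -0.05 over the 11324 genes and -0.06 over the 44. Of the 13, lower in replicate 2 were H3f3a, H3f3b, H2afv, H2afy, H2afy2, H1f0, Hist1h2ap, Hist1h3i and Hist4h4, and higher were Hist1h1c, Hist1h2bc, Hist2h4 and H2afj. The largest of these on the log2(TPM + 1) scale was -0.43 for Hist4h4, from 113 and 68 counts. The 5 pancreas markers, at 3.70 and 947 TPM, and the erythroid markers, at 7146 and 10297 TPM, moved between the same libraries, and their part in these differences was not tested.

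Genes listed for histone supply were all detected where found, beside 61.3% of all 21474 protein-coding genes. All 15 genes found of a list of 16 for histone 3′ end processing and transcription were detected, with a median of 41.7 and 39.7 TPM. The entry not found, Symplk, matched no symbol of the annotation, so it gives no level. Slbp, which binds the stem-loop, was highest at 187 and 174 TPM, then Cpsf3, the nuclease that cuts the messenger, at 85.6 and 84.9 TPM, and Cdk2, the S phase kinase, at 69.0 and 65.8 TPM. Npat, the coactivator of replication-dependent genes, stood at 17.8 and 17.9 TPM. All 16 replication-coupled chaperone genes were detected, led by Rbbp4 at 275 and 258 TPM, Ssrp1 at 262 and 239 TPM and Tonsl at 198 and 197 TPM. All 17 variant chaperone genes were detected, led by Dek at 164 and 172 TPM and Hjurp, which loads Cenpa, at 159 and 141 TPM. Atrx, which acts with Daxx in loading H3.3, followed at 138 and 121 TPM, and Daxx stood at 33.28 and 33.45 TPM. All 14 S phase genes were detected with a median of 123 and 115 TPM, led by Pcna at 233 in both, Mcm6 at 235 and 222 TPM and Tyms at 215 and 193 TPM. None of these genes met the rule for a difference between libraries, which 0.495% of all genes with a mean of at least 5 TPM met.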

How the data were processed

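The 2 libraries of 1 group were used. The authors deposited expected counts, TPM and FPKM for genes and for transcripts, on mm10 and GENCODE M4 per the notes deposited with the files. Whether strand was used in counting is not given in the sources used here. The authors also deposited the percent share of each isoform and, taken here as scores, the bounds of a TPM interval whose level is not stated here. TPM covers all features, which include 96 spike-ins and 26248 numeric identifiers; spike-ins took 9.77% and 10.4% of it. Symbols and coordinates came from GENCODE M21 (42462 of 43346 identifiers matched). TMM factors (edgeR 4.0.16) and DESeq2 1.42.0 size factors, from rounded expected counts, served only as alternatives. The floor is 3 counts per library, and floors and intervals cover counting and assignment error only. The rule for a difference was tested on simulated data. These had simple counting intervals and no reads shared between genes, so the test does not cover near-copies. The changes put in were larger than the rule asks for and only in well-counted genes, so finding them was close to assured. It therefore does not cover smaller changes, or changes in genes of few counts. Genes named are the 3 highest of each class, detected variants, genes under 3 counts, the 5 widest intervals, leading isoforms and the 3 highest of each other list; others named were chosen after their values were seen. The genes and lists were chosen with earlier results of these data known.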

Additional observations from a re-analysis of the deposited data

Results flagged for a closer look

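Of the features with a histone symbol that are not annotated as protein-coding, 4 had counts above the floor of 3 in both libraries; there are no control samples to set them against. The processed pseudogene H3f3c stood at 247 and 195 TPM (mean 221), and 168 of its 312 windows of 100 bases also occur in H3f3a. The unprocessed pseudogene Hist1h2aj stood at 10.9 and 13.1 TPM (mean 12.0), with 232 of 253 windows also in Hist1h2ai. The processed pseudogene H3f3a-ps2 stood at 7.23 and 6.12 TPM (mean 6.68). The antisense gene H3f3aos had 28 and 12 counts, 0.43 and 0.18 TPM (mean 0.305), and since the use of strand is not given its reads cannot be told apart from those of H3f3a where the genes overlap. In addition, coding transcripts of 4 histone symbols were listed under other gene identifiers. That of Hist2h2bb stood at 17.3 and 15.7 TPM (mean 16.5) and one of Hist1h2br at 3.89 and 5.33 TPM (mean 4.61). One of Hist1h2bq stood at 0.19 and 1.59 TPM and one of Hist2h3c1 at 0 and 0.01 TPM, both under 3 counts in at least 1 library.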

How the results depend on the processing

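The count of detected genes stayed between 44 and 69, and the count of differing genes stayed at 0, under the alternatives run for each, other scalings included. The ratio of replication-dependent to variant TPM, 0.905, was 0.312 with expected counts in place of TPM, 0.992 with H2afx counted as replication-dependent and 0.241 without Hist1h2ap, and from 0.891 to 0.919 for single libraries. The histone share, 1.18% of gene TPM, was 1.38% over nuclear protein-coding genes, 0.608% of counts and 0.766% without Hist1h2ap. The variant median exceeded the replication-dependent median by 3.53 on the log2(TPM + 1) scale, by 3.19 with H2afx moved, by 3.70 with a pseudocount of 0.1 and by 4.79 over detected genes. Shares of histone TPM for H1, H2A, H2B, H3 and H4 were 2.07%, 62.4%, 1.45%, 30.4% and 3.66%. In counts they were 4.197%, 50.3%, 1.15%, 42.8% and 1.60%, and without Hist1h2ap 3.18%, 42.2%, 2.22%, 46.7% and 5.62%. Hist1 held 96.3% of replication-dependent TPM, 92.6% in counts and 86.2% without Hist1h2ap. Counts are not corrected for length, which moves class shares by construction; leaving out Hist1h2ap was chosen after seeing the data. With 2 libraries, the SDs are themselves uncertain.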
